A study of Mus musculus with 92 samples.

Results

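Quadriceps muscle of 92 mice was examined for the 7 genes that make sphingomyelin, break it down or carry ceramide to its site of synthesis. They are the synthase genes Sgms1, Sgms2 and Samd8, the sphingomyelinase genes Smpd1, Smpd3 and Smpd4, and the ceramide transfer gene Cert1, chosen by name from a table of 13441 genes, in which all 7 were found. The animals were DOz mice, an outbred stock in which each animal inherits its own mixture of alleles. All had been kept on chow for life and were sampled at about 18 to 20 weeks of age, so there was 1 group, with no treatment or genotype shared by some animals and not by others. The series as a whole concerns very long-chain ceramides in skeletal muscle and insulin resistance. The RNA came from whole tissue, so every fibre and every other cell of the tissue contributed to a value.

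Sphingomyelin is a major sphingolipid of the plasma membrane. It is made when a phosphocholine head group is moved onto ceramide, chiefly in the Golgi, and this uses up ceramide while releasing diacylglycerol. Sphingomyelinases cut the head group off again and return ceramide, each in its own compartment. Ceramide itself is made in the endoplasmic reticulum, and a transfer protein carries it across to the Golgi membranes that hold the synthase. In muscle this exchange is of interest because ceramide is a lipid known to interfere with insulin signalling.

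The data are polyadenylated RNA sequencing values on a log2 scale. Back on a linear scale the values of each sample added up to between 898071 and 1140761, with a median of 1006085, so a value is close to the log2 of an abundance on the CPM or TPM scale. How many reads stand behind each library is unknown, so precision comes only from the spread between animals. Skeletal muscle markers were high in every library, with Acta1, skeletal actin, at 14.60 ± 0.17 (SD, n = 92) and Des, desmin, never below 11.15. Nothing in the labels says whether any animals shared a litter or cage, so p-values measure the spread between these samples. The sample titles carry numbers that fall into 5 runs of 33, 14, 21, 11 and 13 animals, called blocks here; what the numbers mean is not stated. By limma's moderated F test with Benjamini-Hochberg adjustment, 0.0149% of genes (2, Klf7 and Sh3bp5) differed between blocks. None of the 7 sphingomyelin genes did, the smallest adjusted p being 0.565 for Sgms1, although 1 of them had an unadjusted p under 0.05.

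Before the results, 1 library needs to be named. The sample numbered 29 in order of deposition had the lowest length score, which is the mean standardised level of the 1325 genes with the longest exon sequence (9940 bases and over) minus that of the 1325 genes with the shortest (1702 bases and under). Its score was -2.13, against -1.02 for the next lowest animal, a median of 0.07 and a highest value of 0.94. Its distance to the median profile of all animals, a root mean square of 0.593 log2 units, was the 4th largest, with a median over animals of 0.467. It held the lowest value of Sgms1, of Samd8 and of Cert1, at 5.02, 5.77 and 4.97, and the second highest of Smpd1, at 6.35. Values without this animal are therefore given beside the pairs and beside some, not all, of the counts that changed.

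Sgms1 encodes the main Golgi sphingomyelin synthase. It lies on the minus strand of chromosome 19 at 32122727-32389714 (GRCm38). Its deposited values ran from 5.02 through a median of 5.88 to 6.45, with a mean of 5.89 ± 0.29 (SD, n = 92), a 2.68-fold range. Sgms2, the synthase also found at the plasma membrane, lies on the minus strand of chromosome 3 at 131318985-131491411. It was far lower and far more variable, from -0.22 through 1.20 to 3.83, with a mean of 1.31 ± 0.75, so that the highest animal had 16.6 times the level of the lowest. Samd8 encodes the related endoplasmic reticulum protein SMSr, which makes ceramide phosphoethanolamine rather than sphingomyelin in bulk, and is on the plus strand of chromosome 14 at 21750531-21798726. It was the steadiest of the synthase genes, from 5.77 through 6.46 to 6.87, with a mean of 6.46 ± 0.20.

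Smpd1 encodes acid sphingomyelinase, the enzyme of the lysosome. Its compact gene on the plus strand of chromosome 7 spans 105554360-105558389. Values ran from 5.51 through 5.998 to 6.56, with a mean of 5.99 ± 0.18 (SD, n = 92), the smallest SD of the 7 genes. Smpd3, the neutral sphingomyelinase of the inner plasma membrane and Golgi, is on the minus strand of chromosome 8 at 106252548-106337988. It was the lowest gene, from -1.10 through 0.74 to 2.35, with a mean of 0.73 ± 0.77, and 14 animals lay below 0. Its exons overlap those of Prmt7 on the opposite strand over 247 bases, and whether reads were counted by strand is not stated, so reads from that stretch cannot be told apart. The same holds for the exons of Cert1, which overlap Gm48133 over 267 bases, and of Sgms1, which overlap 2700046G09Rik over 10. Smpd4, the neutral sphingomyelinase of the endoplasmic reticulum and nuclear envelope, is on the plus strand of chromosome 16 at 17619354-17644828. It lay between these, from 2.83 through 3.60 to 4.88, with a mean of 3.63 ± 0.36.

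Cert1, listed as Col4a3bp in the older annotation, encodes the protein that carries ceramide from the endoplasmic reticulum to the Golgi. It is on the plus strand of chromosome 13 at 96542618-96640167. Values ran from 4.97 through 6.08 to 6.76, with a mean of 6.05 ± 0.29 (SD, n = 92). In the plot of the 7 genes by animal, Sgms1, Samd8, Smpd1 and Cert1 overlap one another at high values, Smpd4 forms a middle band, and Sgms2 and Smpd3 overlap at the bottom with wide spreads. Low genes have wider spreads in general, so each SD was set against the SD that a trend over all genes gives at that mean. On that scale, as a log2 ratio, Sgms2 stood at 0.61 (above 85.4% of genes), Sgms1 at 0.47 (80.8%), Cert1 at 0.46 (80.4%), Smpd3 at 0.46 (80.2%) and Smpd4 at 0.37 (75.4%). Samd8 at -0.02 (49.7%) and Smpd1 at -0.22 (33.7%) varied as much as, or less than, the trend.

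**Figure D1:**
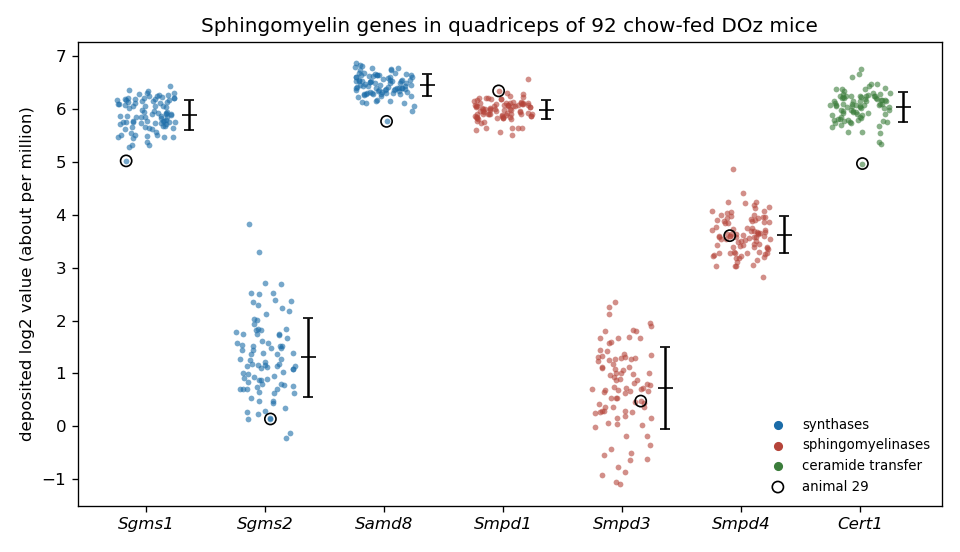
Deposited log2 values (vertical axis) of the 7 genes (horizontal axis) in 92 animals, 1 point per animal, with the mean and SD beside each group of points and animal 29 ringed. The synthase gene Sgms2 (mean 1.31) and the sphingomyelinase gene Smpd3 (mean 0.73) are low and spread widely, and animal 29 is the lowest point of Sgms1, Samd8 and Cert1.

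How the genes rank depends on whether the deposited values were already divided by transcript length, which is not stated. As deposited, the order of the means was Samd8, Cert1, Smpd1, Sgms1, Smpd4, Sgms2 and Smpd3. If the values are not yet per length, levels of different genes need that step, so each mean was also divided by the kilobases of exon sequence of the gene (GENCODE M21). On this log2 per-kilobase scale the order was Smpd1 at 4.25, Samd8 at 3.53, Cert1 at 3.01, Sgms1 at 2.49, Smpd4 at 0.45, Sgms2 at -1.33 and Smpd3 at -1.66. Smpd1 was higher than Samd8 in 92 of 92 animals, by 0.72 ± 0.26 log2 units (SD) per kilobase, and as deposited it was higher in 1 of 92, with a difference of -0.47, so this pair turns with the scale. Sgms1 was higher than Smpd4 in 92 of 92 on both scales, by 2.04 ± 0.40 per kilobase. In each case a two-sided sign-flip permutation test gave p = 1e-05, the smallest that 100000 resamples allow. Sgms2 and Smpd3 were the closest neighbours on the per-kilobase scale. There they differed by 0.33 ± 0.97, less than the spread between animals, with Sgms2 higher in 52 of 92 (permutation p = 0.00142). The middle of the order also depends on which length is used. With the longest annotated transcript in place of all exon sequence, Samd8 and Cert1 differed by 0.05 (permutation p = 0.0704), and Sgms1, whose longest transcript covers 4036 of its 10546 exon bases, stood above Cert1 by 0.23 (permutation p = 1e-05).

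Within the synthase family, Samd8 made up a median of 65.3% of the summed per-length level in an animal (range 56.9% to 77.4%). Sgms1 made up 32.3% (21.04% to 41.9%) and Sgms2 2.25% (0.757% to 9.42%). With the longest transcript as the length the medians were 45.5% for Samd8, 52.6% for Sgms1 and 1.501% for Sgms2, and with the values as deposited they were 58.1%, 39.8% and 1.65%. Which of Samd8 and Sgms1 leads therefore turns with the length used, while Sgms2 had the smallest median share on all 3 scales. The related genes in the table were the neutral sphingomyelinase gene Smpd2 at 2.75 ± 0.29 and the phosphodiesterase genes Smpdl3a at 6.42 ± 0.17 and Smpdl3b at 1.16 ± 0.77 (deposited log2 values, SD, n = 92).

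Over the 92 animals, 3 of the 21 pairs among the 7 genes passed the test, which required an adjusted p under 0.05 in limma's fit over all genes in both directions. All 3 pairs were positive and joined Cert1, Samd8 and Sgms1, the genes for ceramide transport to the Golgi and for the more abundant synthases. The share of all genes past the same threshold was 27% with Cert1 as the predictor, 18.4% with Sgms1 and 13.3% with Samd8, so a partner of these genes was common. Cert1 and Samd8 had r = 0.541 (permutation p = 1e-05) and rho = 0.478 (permutation p = 1e-05), with a larger adjusted p of 8.9e-06 by limma. Cert1 and Sgms1 had r = 0.503 (permutation p = 1e-05) and rho = 0.428 (permutation p = 2e-05), with 1.6e-05. Sgms1 and Samd8 had r = 0.392 (permutation p = 0.00016) and rho = 0.309 (permutation p = 0.00309), with 0.00246.

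Animal 29 sits at the low corner of all 3 scatter plots. Without it r was 0.466 for Cert1 and Samd8, 0.435 for Cert1 and Sgms1 and 0.315 for Sgms1 and Samd8, and all 3 still passed (larger adjusted p by limma 0.00065, 0.00061 and 0.0312). Without the 2 animals farthest from the median of Sgms1, r for Sgms1 and Samd8 fell to 0.268. The pair no longer passed where each limma fit left out the 2 animals farthest for its own predictor (larger adjusted p = 0.0956). Within the blocks, r ranged from 0.253 to 0.825 for Cert1 and Samd8, from 0.169 to 0.668 for Cert1 and Sgms1 and from 0.0058 to 0.758 for Sgms1 and Samd8, positive in 5 of 5 blocks each time. The weakest block value of the last pair is close to no relation. With 3 principal components as covariates none of the 3 pairs passed by limma, and r was 0.266 for Cert1 and Samd8, 0.0035 for Cert1 and Sgms1 and -0.0052 for Sgms1 and Samd8. With the length score as a covariate, only Cert1 and Samd8 passed (r = 0.416), and the other pairs had r = 0.258 and 0.259. With marker scores, Sgms1 and Samd8 did not pass (r = 0.258).

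**Figure D2:**
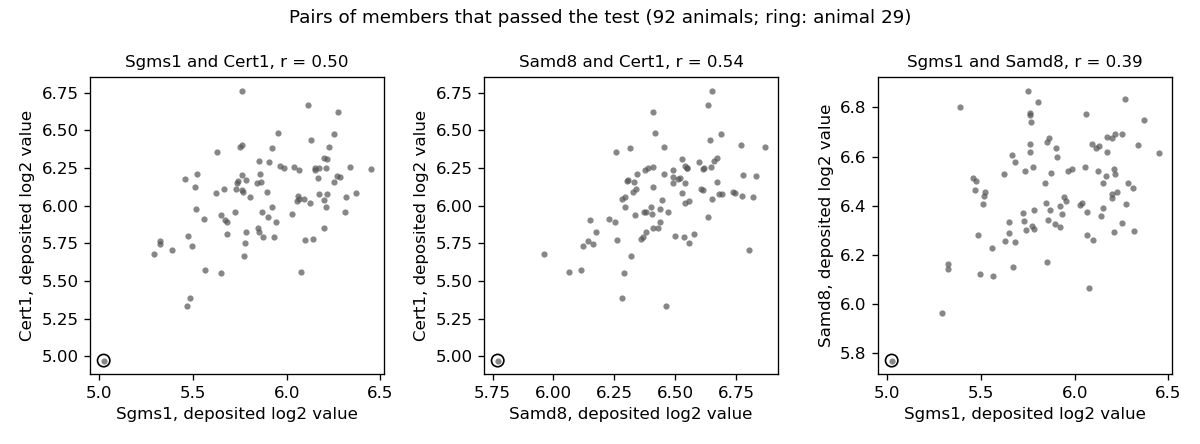
Deposited log2 values of Cert1 against Sgms1, of Cert1 against Samd8 and of Samd8 against Sgms1, 1 point per animal (92), with animal 29 ringed. The points rise together (r = 0.503, 0.541 and 0.392), and the ringed animal lies lowest on both axes of each panel.

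None of the other 18 pairs passed. Among the 21, 7 had a permutation p under 0.05 for r before adjustment, and 14 had a positive r. No pair of sphingomyelinase genes was among those that passed. Smpd1 and Smpd3 had r = -0.247 (permutation p = 0.0178; rho = -0.286, permutation p = 0.00549) with an adjusted p of 0.147 by limma. Smpd1 and Sgms2, an enzyme of each direction, had r = -0.232 (permutation p = 0.0252; rho = -0.187, permutation p = 0.0744) with an adjusted p of 0.174. Smpd4 and Cert1 had r = 0.162 (permutation p = 0.122; rho = 0.160, permutation p = 0.129).

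The start sites of the 3 genes that moved together were read from RefSeq (GRCm38.p6), together with that of Smpd1, which did not pass with any of them. Each sequence is the 250 bases before the most upstream listed start, 5′ to 3′ on the gene's strand, and capitals mark GC boxes, the motif GGGCGG or its reverse complement CCGCCC. Cert1 is from chr13:96542485-96542734, Sgms1 from chr19:32388513-32388762 on the minus strand, Samd8 from chr14:21750281-21750530 and Smpd1 from chr7:105554110-105554359. Their starts can differ from the GENCODE spans given above.
Cert1: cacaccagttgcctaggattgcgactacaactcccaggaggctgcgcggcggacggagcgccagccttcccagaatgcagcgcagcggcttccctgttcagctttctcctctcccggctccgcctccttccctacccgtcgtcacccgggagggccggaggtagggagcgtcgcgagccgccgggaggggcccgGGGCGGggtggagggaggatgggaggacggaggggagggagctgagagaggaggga
Sgms1: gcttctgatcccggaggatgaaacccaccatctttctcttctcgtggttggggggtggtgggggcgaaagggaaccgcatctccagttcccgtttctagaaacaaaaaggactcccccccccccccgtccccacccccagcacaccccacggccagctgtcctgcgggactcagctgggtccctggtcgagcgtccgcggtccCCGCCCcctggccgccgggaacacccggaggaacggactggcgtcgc
Samd8: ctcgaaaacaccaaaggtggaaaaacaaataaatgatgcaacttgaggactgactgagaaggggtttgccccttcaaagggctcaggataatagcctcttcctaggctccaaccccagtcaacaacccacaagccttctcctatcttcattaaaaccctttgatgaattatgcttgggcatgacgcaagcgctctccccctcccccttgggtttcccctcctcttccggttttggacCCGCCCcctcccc
Smpd1: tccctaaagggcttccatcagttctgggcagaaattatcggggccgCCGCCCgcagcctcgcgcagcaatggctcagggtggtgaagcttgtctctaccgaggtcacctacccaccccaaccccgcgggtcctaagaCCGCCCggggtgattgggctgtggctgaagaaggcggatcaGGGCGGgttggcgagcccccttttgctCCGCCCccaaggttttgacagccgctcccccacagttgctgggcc

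Cert1, Sgms1 and Samd8 each held 1 GC box and Smpd1 held 4. A GC box on either strand was found in 32.7% of the 32851 mouse promoters of the same length. The windows of Cert1 and Sgms1 were rich in G and C, at 70% and 67.2%, that of Smpd1 was at 64.8%, and that of Samd8 was at 51.6%. Smpd1 held 1 CCAAT motif (either strand), which 33.8% of promoters hold. Neither CACGTG (6.02% of promoters) nor TATAAA on either strand (12.4%) was in any of the 4 windows. The windows of Sgms2 and Smpd4 held no GC box, and that of Sgms2 held 1 CCAAT motif. A match is a run of letters and not a measured binding site.

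Each of the 7 genes was then set against the 13440 other genes, with the slope given as the log2 change of a gene per SD of the sphingomyelin gene, plus or minus its SE. A gene is said to rise or fall with the sphingomyelin gene where the adjusted p of limma (Benjamini-Hochberg over all genes) was under 0.05. With Cert1 3627 genes passed, of which 2101 rose (15.6% of all genes) and 1526 fell (11.4%). With Sgms1 2473 passed, of which 1550 rose (11.5%) and 923 fell (6.87%), and with Samd8 1789, of which 1260 rose (9.38%) and 529 fell (3.94%). Without animal 29 the count for Samd8 was 1176. These were the 3 genes of the called pairs. Sgms2 had 799 (5.94%), of which 436 rose (3.24%) and 363 fell (2.7%), Smpd3 had 765 (5.69%), of which 589 rose (4.38%) and 176 fell (1.31%), and Smpd1 had 654 (4.87%), of which 401 rose (2.98%) and the rest fell (1.88%). Smpd4 had 156 (1.16%), of which 64 rose (0.476%) and 92 fell (0.685%). Gene lists are described by their counts and medians, to be read against these shares, and the members of the lists are not independent of one another.

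The level of genes with long exon sequence relative to genes with short exon sequence moved with several of the 7 genes. The length score had r = 0.729 with Cert1 (permutation p = 1e-05; rho = 0.629, permutation p = 1e-05), r = 0.477 with Sgms1 (permutation p = 1e-05; rho = 0.355, permutation p = 0.00054) and r = 0.381 with Samd8 (permutation p = 0.00021; rho = 0.264, permutation p = 0.0112). Smpd4 had r = 0.353 (permutation p = 0.00076; rho = 0.383, permutation p = 0.00022). Smpd1 had r = -0.220 (permutation p = 0.0345; rho = -0.143, permutation p = 0.173), Smpd3 0.167 (permutation p = 0.110; rho = 0.121, permutation p = 0.251) and Sgms2 0.110 (permutation p = 0.298; rho = 0.050, permutation p = 0.639). These are 7 relations with unadjusted p-values. Without the 2 animals farthest from the median length score, r was 0.645 for Cert1, 0.368 for Sgms1, 0.239 for Samd8, 0.385 for Smpd4 and -0.123 for Smpd1. Without animal 29 alone it was 0.670, 0.392, 0.257, 0.397 and -0.140. Within blocks it stayed positive for Cert1 (0.496 to 0.842), Sgms1 (0.131 to 0.700) and Samd8 (0.112 to 0.884), and changed sign for Smpd4 (-0.159 to 0.626), Smpd1 (-0.506 to 0.144), Smpd3 (-0.284 to 0.330) and Sgms2 (-0.158 to 0.333).

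Genes rising with Cert1 had a median exon length of 7131 bases and those falling with it 2591, against 4447.5 for all genes with a length. For Sgms1 the medians were 6965 and 3057, for Samd8 6964 and 3755.5, and for Smpd4 8247.5 and 2064. Smpd1 went the other way, with 3337 for rising and 5016.5 for falling genes. Of the 7 genes themselves, Smpd1 (3337 exon bases) is shorter than the median gene and the other 6 are longer. What lies behind this length pattern was not tested.

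**Figure D3:**
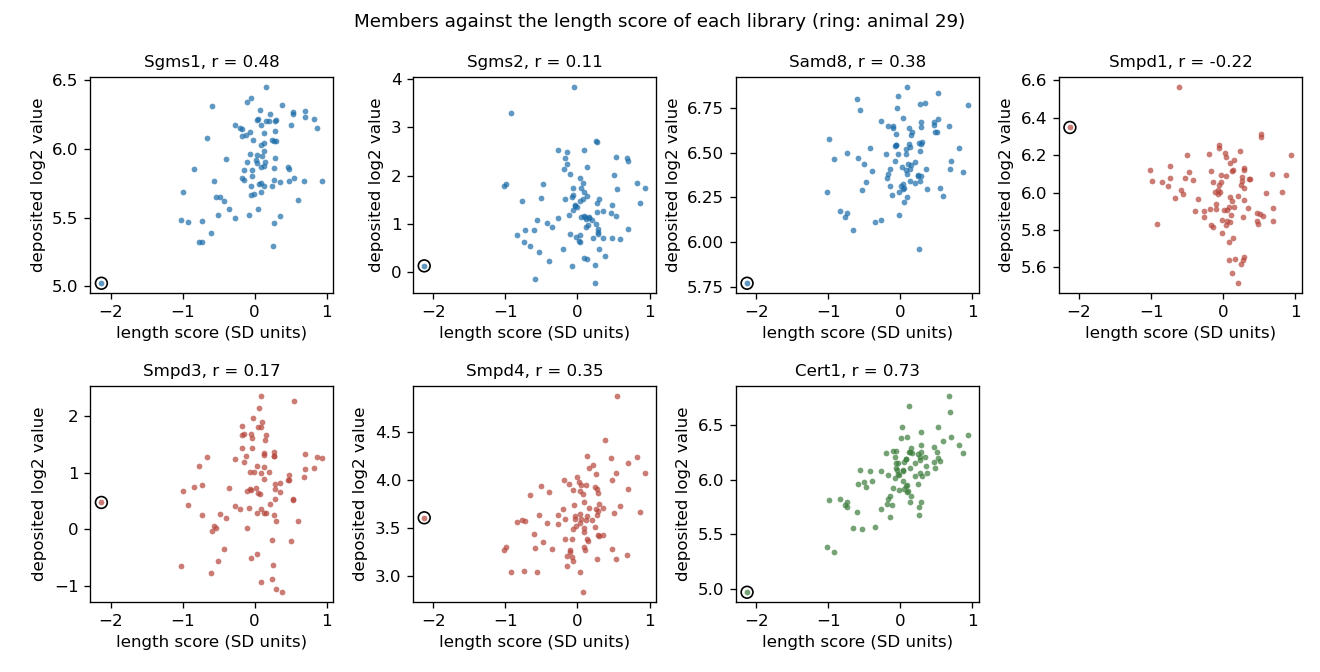
Deposited log2 value of each of the 7 genes (vertical axes) against the length score of the library (horizontal axes, long-gene minus short-gene mean in SD units), 1 point per animal (92), with animal 29 ringed. Cert1 follows the score most closely (r = 0.729), and the ringed animal lies apart at the low end of the score.

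With Sgms1 rose Pde4d, a phosphodiesterase that degrades cyclic AMP, by 0.30 ± 0.03 log2 per SD of Sgms1 (adjusted p = 2.48e-12 by limma). Oxsr1, a kinase that controls ion cotransporters, rose by 0.11 ± 0.01, Cap2, an actin-binding protein, by 0.12 ± 0.01 and Slain2, a microtubule plus-end protein, by 0.16 ± 0.02. The genes that fell most closely with it included Rps10 (-0.09 ± 0.01) and Rpsa (-0.08 ± 0.01) of the ribosome and Plxnb2, a semaphorin receptor (-0.27 ± 0.05). All of these had the same sign in 5 of 5 blocks. Rpsa no longer passed with the length score as a covariate, and with 3 principal components as covariates Pde4d was the one of them that did.

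Of the insulin signalling list, 12 of 20 genes rose with Sgms1 and 1 fell, with a median slope of 0.073 against -0.003 for all genes. Gsk3b, the glycogen synthase kinase, rose by 0.13 ± 0.02 (adjusted p = 7.8e-06 by limma), Pdpk1, the kinase that activates Akt, by 0.10 ± 0.02 and Insr, the insulin receptor, by 0.10 ± 0.02. With the length score as a covariate, 2 genes of the list passed, without the 2 farthest animals 7 did, and with marker scores 5 did. Of 81 cytosolic ribosomal protein genes, 49 fell and 0 rose (61 with an unadjusted p under 0.05 in limma), 1 passed with the length score as a covariate, and 30 passed without the 2 farthest animals. Genes of other cell types fell too: 5 of 8 fibroblast markers, among them the collagen genes Col1a1 (-0.19 ± 0.06) and Col1a2 (-0.18 ± 0.05) and the matrix gene Lum (-0.14 ± 0.04), and 4 of 8 macrophage markers, led by Csf1r (-0.19 ± 0.06). Without the 2 animals farthest from the median of Sgms1, none of the fibroblast and none of the macrophage markers passed by limma (6 and 4 at an unadjusted p under 0.05). Over the 92 animals the summed level of the fibroblast list ran from 8.92 to 11.23 and that of the macrophage list from 4.89 to 8.01 on the log2 scale. In whole muscle, fewer cells of a type and less RNA per cell cannot be told apart. Their part in the association was not tested. With the scores of 9 marker lists as covariates, 1490 genes passed for Sgms1 in place of 2473.

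Within sphingolipid metabolism, 2 of 15 ceramide transfer partners rose with Sgms1 and 1 fell, close to the 18.4% of all genes called. Vapb, the endoplasmic reticulum anchor that holds CERT, rose by 0.06 ± 0.01 (adjusted p = 0.00053 by limma) and Ppm1l, the phosphatase that activates CERT, by 0.16 ± 0.04, while Gltp, a glycolipid transfer protein, fell by 0.09 ± 0.03. Asah2, the neutral ceramidase, whose span begins 140 kb below that of Sgms1 on chromosome 19, rose by 0.10 ± 0.04 (adjusted p = 0.039), and did not pass without animal 29. Glb1, a glycolipid-degrading enzyme, fell by 0.17 ± 0.06 (not called without the 2 farthest animals), as did Elovl1 (-0.09 ± 0.03), an elongase of very long fatty acids. Of 8 genes of de novo ceramide synthesis 0 passed by limma, and 0 had an unadjusted p under 0.05.

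Tlr4, the receptor for bacterial lipopolysaccharide, rose by 0.32 ± 0.05 log2 per SD of Sgms2 (adjusted p = 9.9e-06 by limma), Midn, a nuclear protein of the proteasome pathway, by 0.20 ± 0.03, Sbno2 by 0.24 ± 0.04 and Mt1, a metallothionein, by 0.71 ± 0.11. Tubg1, gamma-tubulin (-0.10 ± 0.02), Nabp2, a single-strand DNA-binding protein (-0.09 ± 0.02), Bcl2l2, a relative of Bcl-2 (-0.08 ± 0.02), and Zftraf1 (-0.08 ± 0.01) fell. All 8 kept their sign in 5 of 5 blocks and passed without animal 29.

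Of 8 macrophage markers 7 rose with Sgms2 and 0 fell, with a median slope of 0.25 against -0.002 for all genes. They were led by the complement gene C1qb (0.29 ± 0.06; adjusted p = 0.0014 by limma), the lysosomal glycoprotein gene Cd68 (0.36 ± 0.08) and C1qc (0.26 ± 0.06), and the marker that did not pass was Csf1r. The mean deposited log2 values of the 8 markers ran from 1.59 for Adgre1 to 3.82 for Mrc1, beside 1.31 for Sgms2. Schwann cell markers went down, 4 of 8, among them Sox10, a transcription factor of the lineage, at -0.22 ± 0.06 (adjusted p = 0.0246), and 1 of the 8 passed without the 2 animals farthest from the median of Sgms2. Of 8 endothelial markers 2 fell, Tie1 (-0.10 ± 0.02) and Kdr (-0.15 ± 0.04). The summed level of the Schwann list ran from 4.83 to 7.31 over the animals. With the marker scores as covariates, 3 genes passed for Sgms2 in place of 799: Midn, Ampd3, an AMP deaminase, and A330094K24Rik. Adding the length score instead left 748 of the 799 called.

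Sphingolipid genes that rose with Sgms2 included 3 of 16 glycosphingolipid genes: B4galt6, a lactosylceramide synthase (0.20 ± 0.05; adjusted p = 0.00765 by limma), B4galnt1, a ganglioside synthase (0.29 ± 0.08), and Ugcg, the glucosylceramide synthase (0.10 ± 0.03). The last did not pass without animal 29, and 1 of the 16 passed without the 2 farthest animals. Of 15 ceramide transfer partners 1 passed, Acbd3, a Golgi scaffold, which rose by 0.06 ± 0.01. In that list 6 of 15 slopes were positive, with a median of -0.016. Of 5 ceramide synthases 1 rose, Cers6, by 0.31 ± 0.07 (adjusted p = 0.00192 by limma), and 1 fell. The median slope of these 5 was -0.036, against -0.002 for all genes. Of 22 lysosomal genes 4 rose and 1 fell, with Lamp2 at 0.07 ± 0.02, Atp6v1h at 0.07 ± 0.02, Ctsb at 0.06 ± 0.02 and Grn at 0.12 ± 0.04, while Tfeb, a regulator of lysosomal genes, fell by 0.08 ± 0.02. Ctsb did not pass without animal 29, and with the block as a covariate none of the 22 passed by limma (10 at an unadjusted p under 0.05). In the insulin signalling list 3 of 20 genes passed. Ptpn1, a phosphatase that acts on the insulin receptor, rose by 0.09 ± 0.03. Gsk3a (-0.07 ± 0.01) and Tbc1d4 (-0.21 ± 0.07), a regulator of glucose transporter traffic, fell. With ranks in place of the values of Sgms2, 1 of the 20 passed, and with marker scores 0 did by limma.

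Edem3, which trims sugars from misfolded proteins of the endoplasmic reticulum, rose by 0.15 ± 0.02 log2 per SD of Samd8 (adjusted p = 3.35e-08 by limma). Wdr7, a partner of the vacuolar proton pump, rose by 0.11 ± 0.02, Scarb2, the lysosomal receptor of glucocerebrosidase, by 0.07 ± 0.01 and Arl1, a Golgi GTPase, by 0.09 ± 0.01. Plxnd1, a semaphorin receptor, fell by 0.15 ± 0.03, Tmem86a, an enzyme of plasmalogen breakdown, by 0.22 ± 0.04, Igfbp7 by 0.15 ± 0.03 and Pi4ka, a kinase that makes phosphatidylinositol 4-phosphate, by 0.11 ± 0.02. All 8 passed with the marker scores, with the length score and without animal 29, and Plxnd1 alone had the opposite sign in 1 of 5 blocks. With 3 principal components as covariates, 10 genes passed for Samd8, Edem3 and Scarb2 among them. Of 22 lysosomal genes 1 rose with Samd8, Scarb2, and 1 fell, Grn (-0.11 ± 0.04).

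Samd8 was the only one of the 7 genes with a called partner among the sphingomyelinase relatives in the table. Smpdl3a, a phosphodiesterase related to acid sphingomyelinase, rose by 0.07 ± 0.02 (adjusted p = 0.00088 by limma). Differences between the 7 genes in this respect were not tested. Of 15 ceramide transfer partners 4 rose with Samd8 and 1 fell: Arf1, the GTPase of Golgi transport (0.04 ± 0.01), Plekha8, the glucosylceramide carrier (0.11 ± 0.04), Acbd3 (0.04 ± 0.02) and Ppm1l (0.13 ± 0.04) on one side, and Prkd2, a kinase that phosphorylates CERT (-0.13 ± 0.04), on the other. Without animal 29, 2 of these genes passed, Arf1 and Prkd2. The number of the 15 that passed was 2 with the block as a covariate, 1 with marker scores, 2 with the length score and 3 without the 2 farthest animals. Kdsr, the reductase of the second step of ceramide synthesis, rose by 0.10 ± 0.03 (adjusted p = 0.0023). In the insulin signalling list 7 of 20 rose and 0 fell, led by Pdpk1 (0.10 ± 0.02), Gsk3b (0.11 ± 0.02) and Rab10 (0.07 ± 0.02), with 4 passing without animal 29, 3 without the 2 farthest animals, 3 with marker scores and 2 with the length score. Of 8 Schwann cell markers 3 fell, led by Pmp22 (-0.13 ± 0.03), and of 8 fibroblast markers 2, Col1a1 (-0.25 ± 0.05) and Col1a2 (-0.20 ± 0.05). With marker scores 0 of the 8 Schwann genes passed by limma (1 at an unadjusted p under 0.05). Those scores include the mean of the same 8 genes, so that fit cannot test the list.

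Smpd1, the lysosomal sphingomyelinase gene, had 1 called gene among 22 lysosomal genes, Mcoln1, a lysosomal calcium channel (0.07 ± 0.02; adjusted p = 0.0199 by limma). The share of all genes called was 4.87%. An unadjusted p under 0.05 in limma was found for 10 of the 22, and for 2801 of all 13440 genes tested. Mcoln1 did not pass without the 2 farthest animals. The closest partners of Smpd1 lay elsewhere. Lrrc38, an auxiliary subunit of calcium-activated potassium channels, rose by 0.26 ± 0.04 log2 per SD of Smpd1 (adjusted p = 5.87e-07), Trim68, a ubiquitin ligase, by 0.28 ± 0.04, Eef1a2, the translation elongation factor of mature muscle, by 0.08 ± 0.01 and Rrm1, the large subunit of ribonucleotide reductase, by 0.15 ± 0.02. Hacd3, a dehydratase of the fatty acid elongation cycle, fell by 0.08 ± 0.01 (adjusted p = 0.00025), Spsb1 by 0.25 ± 0.04, Litaf, a late endosomal protein, by 0.21 ± 0.04 and Snx2, a sorting nexin, by 0.09 ± 0.02. Lrrc38, Trim68, Eef1a2, Rrm1 and Hacd3 passed with 3 principal components, with the marker scores, with the length score and without animal 29. Spsb1 and Litaf did not pass with the marker scores.

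Trim68 and Rrm1 are on the chromosome of Smpd1, with spans that begin 2.88 and 3.11 Mb below it, at 102677582 and 102441695 on chromosome 7 (GRCm38). Trim68 ranged from 1.32 through a median of 2.51 to 3.39 over the 92 animals, Rrm1 from 4.34 through 5.08 to 5.95 and Lrrc38 from 3.18 through 4.89 to 6.05. In the scatter plots both neighbours rise steadily with Smpd1 and no separate group of animals stands out. Within 5 Mb of Smpd1, 4 of 83 genes passed (4.82%, against 4.87% of all genes). Besides Trim68 and Rrm1 they were Art1, which rose, and Trim30a, a tripartite motif gene of the interferon response, which fell by 0.23 ± 0.06. These windows were chosen after the partners had been seen. Of the 10 genes on each side, Trim30a was the one that passed.

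**Figure D4:**
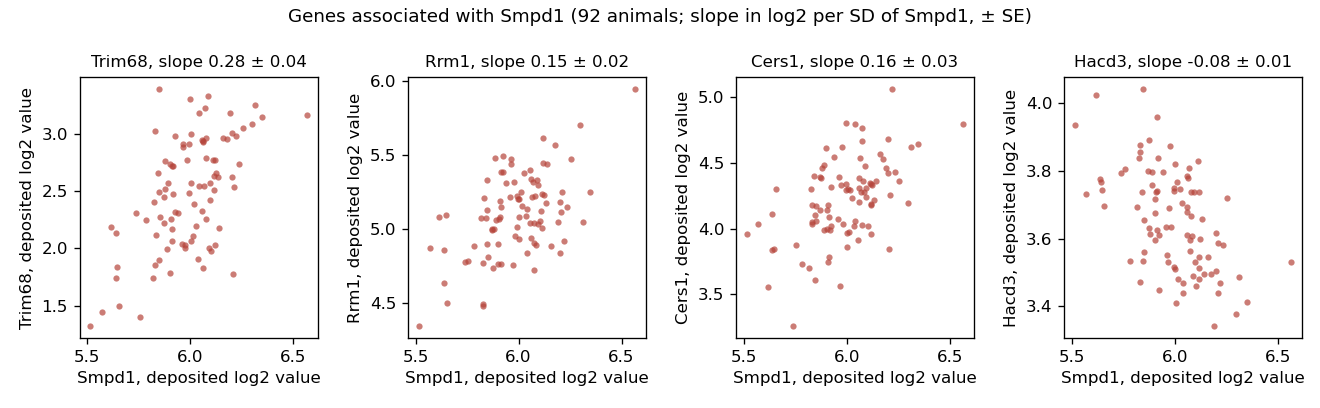
Deposited log2 values of Trim68, Rrm1, Cers1 and Hacd3 (vertical axes) against Smpd1 (horizontal axes), 1 point per animal (92), with the slope in log2 per SD of Smpd1 and its SE. Trim68, Rrm1 and Cers1 rise with Smpd1 by 0.28, 0.15 and 0.16, and Hacd3 falls by 0.08.

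Cers1, the ceramide synthase of skeletal muscle, rose with Smpd1 by 0.16 ± 0.03, and it passed in each of the same alternatives. Of 18 oxidative phosphorylation genes 3 rose with Smpd1, among them Atp5f1a (0.06 ± 0.02) and Cyc1 (0.05 ± 0.02), and none of the 18 passed by limma without animal 29. The number with an unadjusted p under 0.05 was 10 with that animal and 5 without it, and 1 passed with the block as a covariate. Slc2a4, the insulin-responsive glucose transporter, rose by 0.05 ± 0.02 (adjusted p = 0.0282 by limma) and Ptpn1 fell by 0.10 ± 0.03. Both passed without animal 29 and neither with the marker scores. Of the 20 genes of the insulin signalling list 3 passed with Smpd1. Without the 2 farthest animals 1 of the 20 did, and with 3 principal components 0 did by limma. Rpl3l, the muscle form of a ribosomal protein, rose by 0.07 ± 0.01 and its widespread form Rpl3 fell by 0.11 ± 0.03. Rpl3l and Rpl3 were singled out after their values were seen. Of 8 macrophage markers 1 fell, C1qb (-0.21 ± 0.06), and it did not pass with the block as a covariate. Without animal 29, 404 genes passed for Smpd1 in place of 654, and with the marker scores 25 did.

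Tgfbr2, a receptor of transforming growth factor beta, rose by 0.23 ± 0.03 log2 per SD of Smpd3 (adjusted p = 2.05e-09 by limma), Retnla, a secreted protein of alternatively activated macrophages and fat, by 0.59 ± 0.07, Adgrd1, an adhesion receptor, by 0.33 ± 0.04 and Pi16, a marker of a fibroblast subset, by 0.40 ± 0.05. Tmem42 (-0.13 ± 0.03), Rps6kb2, the S6 kinase 2 (-0.12 ± 0.03), Pold4, a small DNA polymerase subunit (-0.13 ± 0.03), and Hagh, an enzyme of methylglyoxal removal (-0.11 ± 0.03), fell. All 8 kept their sign in 5 of 5 blocks and passed without animal 29.

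Markers of 3 other cell types went with Smpd3. Of 8 macrophage markers 7 rose, led by Mrc1, the mannose receptor (0.29 ± 0.06; adjusted p = 0.00021 by limma), Cd163 (0.24 ± 0.05) and C1qb (0.29 ± 0.06), and the remaining one, Cd68, did not pass. Of 8 fibroblast markers 5 rose, led by Dpt (0.20 ± 0.03), the fibrillin gene Fbn1 (0.27 ± 0.05) and Pdgfra (0.14 ± 0.03). Of 10 adipocyte markers 5 rose, led by Cfd, adipsin (0.49 ± 0.11), Cidec, a lipid droplet protein (0.43 ± 0.11), and Adipoq, adiponectin (0.35 ± 0.09). The list medians were 0.26, 0.14 and 0.34 against 0.0007 for all genes. Over the animals the summed adipocyte list ran from 8.43 to 11.67. With the marker scores as covariates, 4 genes passed for Smpd3 in place of 765: Tgfbr2, Retnla, Ddr2, a collagen receptor, and Chrdl1, an inhibitor of bone morphogenetic proteins. What part the other cell types have in these slopes was not tested.

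Genes of de novo ceramide synthesis were among those that rose with Smpd3, 3 of 8. Sptlc2, a subunit of the rate-limiting serine palmitoyltransferase, rose by 0.15 ± 0.04 (adjusted p = 0.00562 by limma), Kdsr by 0.08 ± 0.03 and Degs1, the desaturase that yields ceramide, by 0.07 ± 0.02. Elovl5 (0.12 ± 0.03) and Hsd17b12 (0.16 ± 0.05), of fatty acid elongation, rose as well, and so did Plpp3, a lipid phosphatase (0.09 ± 0.02). Of 16 glycosphingolipid genes 2 rose, B4galnt1 (0.29 ± 0.08) and B4galt5, a lactosylceramide synthase (0.15 ± 0.05). In that list 6 of 16 slopes were positive, with a median of -0.006 against 0.0007 for all genes. With the marker scores none of these sphingolipid and elongation genes passed, and B4galnt1 and B4galt5 did not with the block as a covariate. With the length score 1 gene of de novo synthesis passed. Of 18 oxidative phosphorylation genes 4 fell, led by Atp5po (-0.05 ± 0.01). Of the 18, 1 passed with the block as a covariate and 0 by limma with marker scores or with the length score (6 and 7 at an unadjusted p under 0.05), and 7 passed without the 2 animals farthest from the median of Smpd3.

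Smpd4, at 156, had the fewest partners of the 7. Peak1, a cytoskeletal pseudokinase, rose by 0.13 ± 0.03 log2 per SD of Smpd4 (adjusted p = 0.00391 by limma), Wasf2, an actin regulator, by 0.12 ± 0.02, Fer1l5, a ferlin, by 0.16 ± 0.03 and Nf2, merlin, by 0.13 ± 0.02. Mtch2, of the outer mitochondrial membrane, fell by 0.06 ± 0.01, C1qbp, of the mitochondrial matrix, by 0.07 ± 0.01, Rabggtb, a prenyltransferase subunit, by 0.08 ± 0.02 and Psmb2, a proteasome subunit, by 0.07 ± 0.01. Of 81 cytosolic ribosomal protein genes 19 fell, and 7 of the 81 passed with marker scores. No gene of the 8 lists of sphingolipid, elongation and lysosomal genes passed with Smpd4 by limma. The number with an unadjusted p under 0.05 was 3 of 15 for ceramide transfer partners, 2 of 22 for lysosomal genes, 1 of 3 for sphingomyelinase relatives, 1 of 10 for elongation and 0 in the other 4. Of all 13440 genes tested, 2057 had such a p in limma. With the length score as a covariate 0 genes passed for Smpd4 (887 with an unadjusted p under 0.05 in limma).

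Cert1 had the most partners of the 7. Cacul1 rose by 0.16 ± 0.02 log2 per SD of Cert1 (adjusted p = 3.95e-13 by limma), Rhoq, a small GTPase tied to glucose transporter traffic, by 0.17 ± 0.02, Hipk3, a nuclear kinase, by 0.20 ± 0.02 and Ash1l, a histone methyltransferase, by 0.18 ± 0.02. Rpl27 (-0.12 ± 0.01) and Rpl18 (-0.11 ± 0.02) of the large ribosomal subunit fell, with Rps27a, a ubiquitin fusion protein (-0.11 ± 0.01), and Psmb6, a catalytic proteasome subunit (-0.09 ± 0.01). Of 81 cytosolic ribosomal protein genes 74 fell and 0 rose, with a median slope of -0.09 (75 of the 81 had an unadjusted p under 0.05 in limma). With the length score as a covariate none of the 81 passed (5 at an unadjusted p under 0.05), and 157 genes passed for Cert1 in all, Cacul1 and Rhoq among them. With 3 principal components 0 genes passed (1030 with an unadjusted p under 0.05). The first component had r = 0.963 (permutation p = 1e-05) and rho = 0.942 (permutation p = 1e-05) with the length score.

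Genes that work with CERT were partly called. Of 15 ceramide transfer partners 5 rose and 1 fell. Ppm1l rose by 0.22 ± 0.04 (adjusted p = 8.6e-06 by limma), Vapb by 0.05 ± 0.01, Osbp, a sterol carrier of the same contact sites, by 0.05 ± 0.01, Sacm1l, the phosphatase that consumes phosphatidylinositol 4-phosphate, by 0.10 ± 0.03 and Plekha8 by 0.10 ± 0.04, while Pi4kb, which makes that lipid at the Golgi, fell by 0.06 ± 0.02. The list's median slope was 0.002, near the -0.003 of all genes, and 3 of the 15 passed without the 2 farthest animals and 2 with marker scores. Asah2 rose by 0.14 ± 0.04 and did not pass without animal 29. Elovl1 (-0.08 ± 0.03) and Hacd1 (-0.07 ± 0.02), of fatty acid elongation, fell. None of these genes passed once the length score was a covariate.

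In the insulin signalling list 9 of 20 rose with Cert1 and 0 fell, with a median slope of 0.078. Pdpk1 rose by 0.13 ± 0.01 (adjusted p = 3.38e-11 by limma), Gsk3b by 0.15 ± 0.02 and Insr by 0.10 ± 0.02. The gene of this list that passed with the length score as a covariate was Rab10, and 5 passed with marker scores. Of 9 fast fibre markers 6 fell and 1 rose: Atp2a1, the calcium pump (-0.07 ± 0.02), Pvalb, parvalbumin (-0.09 ± 0.02), Casq1, calsequestrin (-0.09 ± 0.02), Mylpf, Tnni2 and Tnnc2 fell, and Myh4, the fastest myosin, rose (0.09 ± 0.02). Of 18 oxidative phosphorylation genes 8 fell and 1 rose, led by Cox5a (-0.06 ± 0.02). Without the 2 animals farthest from the median of Cert1, 4 of the fast fibre and 5 of the oxidative phosphorylation genes passed. With the length score as a covariate none of either list passed by limma, with 0 of the fast fibre and 5 of the oxidative phosphorylation genes at an unadjusted p under 0.05.

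**Figure D5:**
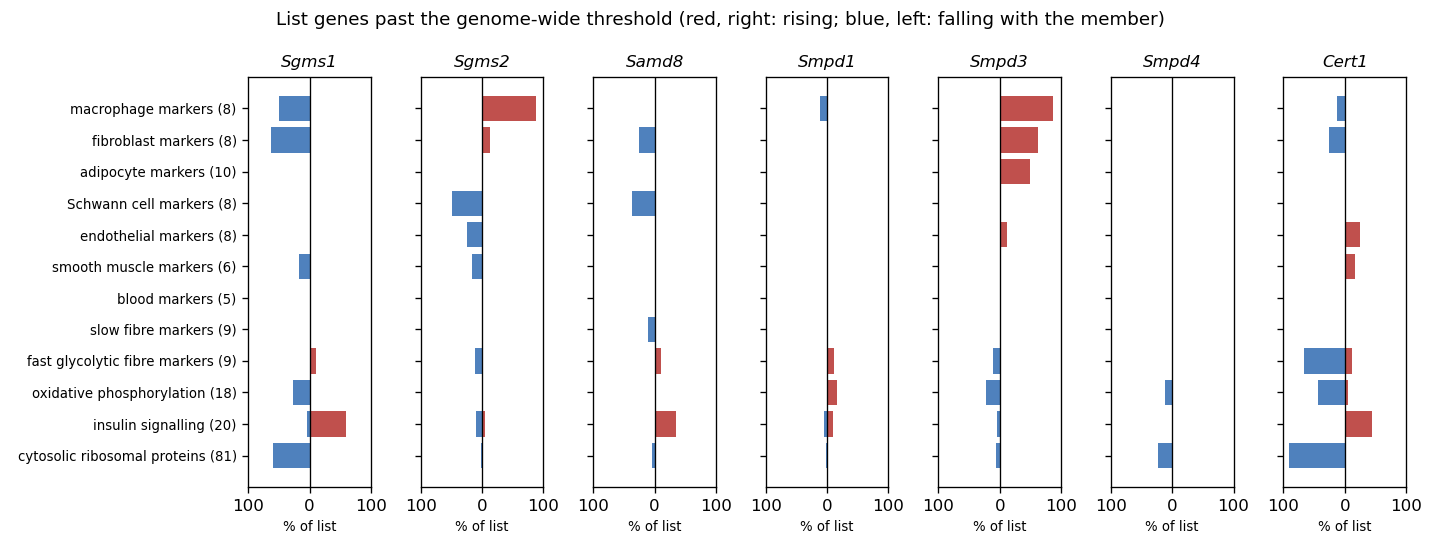
Share of each gene list (rows, number of genes in the table in brackets) that rose (bars to the right) or fell (bars to the left) with each of the 7 genes (panels) past the limma threshold, in percent of the list over 92 animals. Macrophage markers rise with Sgms2 and Smpd3 (7 of 8 each), and ribosomal protein genes fall with Cert1 (74 of 81) and Sgms1 (49 of 81).

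Genes near each of the 7 on the chromosome were looked at as well, 10 on each side. The number that passed was 8 of 20 for Sgms1 (18.4% of all genes and 19.9% of those on its chromosome passed), 5 for Samd8 (13.3% and 16.7%) and 4 for Cert1 (27% and 28.2%). It was 3 for Smpd3 (5.69% and 4.46%) and 1 for Smpd1 (4.87% and 5.85%), so for Cert1 it was below and for Smpd1 close to these shares. Without animal 29 it was 4 for Sgms1 (Ric1, Minpp1, Stambpl1 and Gm36419), 4 for Samd8 and 3 for Cert1, with Camk2g and Nsa2 among those lost, and still 3 for Smpd3 and 1 for Smpd1. For Sgms2 and Smpd4 it was 0 of 20 by limma, with 1 and 2 at an unadjusted p under 0.05. Near Samd8, all 5 rose: Vcl, vinculin (0.15 ± 0.03; adjusted p = 1.8e-05 by limma), Ap3m1, an adaptor subunit of lysosomal sorting (0.13 ± 0.02), Camk2g, a calcium-dependent kinase (0.05 ± 0.02), Dusp13b (0.09 ± 0.03) and Kcnma1, a potassium channel (0.15 ± 0.03). Near Cert1, Polk, a DNA polymerase whose span begins 61.9 kb below that of Cert1, rose by 0.19 ± 0.05, Gfm2 by 0.09 ± 0.02 and Fam169a by 0.14 ± 0.05, and Nsa2 fell by 0.06 ± 0.02. Near Sgms1, Ric1 rose by 0.11 ± 0.02 and Stambpl1 fell by 0.24 ± 0.06. Near Smpd3, Sntb2, a syntrophin (0.13 ± 0.03), and Slc12a4, a cation cotransporter (0.11 ± 0.03), rose and Cog8, a Golgi tether, fell by 0.06 ± 0.02.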

How the data were processed

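Quadriceps RNA of 92 chow-fed mice was analysed from 1 table of log2 values deposited by the authors. The labels' protocols name the KAPA mRNA HyperPrep kit, and the submitters' processing notes name bcl2fastq, kallisto 0.50.1, edgeR, MultiQC and the build mm10, without roles or order; the scaling, annotation and low-value filter are not given in the sources used here. Of 13456 lines, 15 repeats were removed. Tests planned for counts were replaced by limma 3.58.1 (R 4.3.3): a slope on the standardised level of each gene, moderated with a mean-variance trend, Benjamini-Hochberg adjusted over 13440 genes, threshold 0.05. Correlations used two-sided permutation tests with 100000 resamples (scipy 1.17.1). The fits were tested on simulated data. Depth is unknown. The 7 genes and the 21 gene lists were chosen with earlier results of these data known; the ribosomal list, the length score and the removal of animal 29 were added after seeing these values. Named genes were the 4 rising and 4 falling partners with the largest correlation and a mean of at least 1, and up to 3 called genes per list, others being added after their values were seen. Of the table's genes, 13255 matched GENCODE M21 and 186 did not; 6 of the 7 genes had a RefSeq start. Alternatives were the block, 3 principal components or 9 marker scores as covariates, 2 animals left out, ranks, a pseudocount of 1, a mean of at least 1, no trend, and other length scalings. Some genes that the naming rule covers are not reported here.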

Additional observations from a re-analysis of the deposited data

How the results depend on the processing

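No paired analysis was possible because there was 1 group of animals and no shared replicate numbers. Without length scaling, Smpd1 lay below Samd8 by a log2 difference of -0.47. With the longest transcript as length, Samd8 exceeded Cert1 by 0.0472 and Cert1 lay below Sgms1 at -0.23. Of the 3 called pairs, 0 passed with 3 principal components (r = -0.0052 for Sgms1 and Samd8, 0.0035 for Sgms1 and Cert1, 0.266 for Samd8 and Cert1; larger adjusted p by limma 0.994, 0.997 and 0.487), and 1 passed with the length score (Samd8 and Cert1; the other two had r = 0.259 and 0.258). Sgms1 and Samd8 also missed the threshold with marker scores (r = 0.258) and without the 2 farthest animals (r = 0.268).

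With 3 principal components, the genes called by limma were 3 for Sgms1 (Pde4d, Golga4 and Hoxd8), 0 for Sgms2, 10 for Samd8, 24 for Smpd1, 109 for Smpd3, 0 for Smpd4 and 0 for Cert1 (880, 891 and 1030 at an unadjusted p under 0.05 for the 3 genes with none). With marker scores they were 1490 for Sgms1, 3 for Sgms2, 1122 for Samd8, 25 for Smpd1, 4 for Smpd3 and 73 for Smpd4. Without the 2 farthest animals they were 1528 for Sgms1, 862 for Samd8, 307 for Smpd1, 90 for Smpd4 and 2245 for Cert1. With the length score they were 880 for Sgms1, 823 for Samd8, 0 for Smpd4 (887 unadjusted) and 157 for Cert1. Without animal 29 they were 1176 for Samd8 and 404 for Smpd1, of which 1074 and 375 were among the genes called with it. The cause of these shifts was not tested. Of 56 named partners, 13 passed with 3 principal components, 41 with marker scores and 40 with the length score, and none reversed under any alternative run; all 56 passed with the block, ranks, log2(value + 1), no trend, a mean of at least 1, and without the 2 farthest animals or animal 29. Depth is unknown, so how far counting error limits the low genes Sgms2 and Smpd3 cannot be given.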
